A study of Mus musculus with 6 samples.

Results

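The genes described here are the machinery and the receptors of autophagy and mitophagy, a list of 48 mouse genes matched by exact symbol to the deposited table of UMI counts of E0771 cells. Of the 48 genes, 45 were among the 10520 genes of the table and 42 passed the filter on low counts, out of 8969 genes that passed it. Atg4d, Atg10 and Ulk2 were counted but did not pass the filter, and Fundc2, Park2 (parkin) and Atg2b were not analysed here. E0771 is a breast carcinoma line of C57BL/6 origin. The study compared E0771 cells transduced with a lentiviral empty puromycin vector, MISSION TRC2 pLKO.5-puro (shControl), with cells transduced with a MISSION shRNA plasmid against lamin A/C (shLmna), to ask how the transcriptome differs when the nuclear lamina is depleted of lamin A and lamin C. Both populations were selected and expanded in puromycin, and each gave 3 MARS-seq libraries, in which the 3' ends of polyadenylated transcripts are read and each captured molecule is counted once by its unique molecular identifier (UMI). The titles of the knockdown libraries carry the construct name shRNA4, and their genotype labels read shLmna. The knockdown was a selected population carrying a single shRNA construct, so the values cannot separate loss of lamin A/C from other effects of that construct. No label states that the libraries came from separate cultures, so all p values measure the spread between these libraries, which may be technical. The labels place the shControl and shLmna libraries at separate neighbouring positions of a plate, so that the group and the plate position cannot be told apart.

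Macroautophagy encloses cytoplasm in a double membrane, the autophagosome, which fuses with the lysosome. The ULK kinase complex starts the process, a class III phosphatidylinositol 3-kinase (PI3K) complex marks the forming membrane with the lipid PI3P, ATG9 vesicles and lipid transfer proteins extend it, and a ubiquitin-like conjugation system attaches ATG8 proteins (LC3 and GABARAP) to it. Cargo is brought to ATG8 either by soluble adaptors such as p62/Sqstm1 or by receptors embedded in the organelle itself, as BNIP3, BNIP3L and FUNDC1 on mitochondria and FAM134B on the endoplasmic reticulum (ER). In carcinoma cells Bnip3 and Bnip3l are known targets of the hypoxia-inducible factor HIF-1, Sqstm1 of the oxidative stress factor NRF2, and several autophagy and lysosome genes, Wipi1 among them, of the factor TFEB.

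The promoters of 3 of the 4 members that passed the test in all processing alternatives that tested them are shown for these known inputs. The sequences are from RefSeq (GRCm38.p6), 200 bases each, from 250 to 51 bases before the transcript start, 5' to 3' on the coding strand. Capitals mark matches, on either strand, to the hypoxia response cores ACGTG and GCGTG, to the E-box CACGTG, which contains ACGTG on both strands, and to the antioxidant response core TGACNNNGC. The Bnip3 window is chr7:138909557-138909756 (reverse strand), the Wipi1 window chr11:109611440-109611639 (reverse strand) and the Sqstm1 window chr11:50210871-50211070 (reverse strand). By GENCODE the Bnip3 window is intergenic, the Wipi1 window lies in an intron of a longer Wipi1 transcript, and the Sqstm1 window lies upstream of the annotated Sqstm1 gene.
Bnip3: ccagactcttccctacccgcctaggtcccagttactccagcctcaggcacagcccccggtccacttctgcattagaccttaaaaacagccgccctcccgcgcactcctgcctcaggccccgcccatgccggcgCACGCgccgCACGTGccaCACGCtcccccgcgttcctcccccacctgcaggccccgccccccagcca
Wipi1: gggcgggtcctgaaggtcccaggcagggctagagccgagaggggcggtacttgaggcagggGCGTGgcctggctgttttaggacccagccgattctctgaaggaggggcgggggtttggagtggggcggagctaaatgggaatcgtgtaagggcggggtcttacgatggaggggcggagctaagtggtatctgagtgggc
Sqstm1: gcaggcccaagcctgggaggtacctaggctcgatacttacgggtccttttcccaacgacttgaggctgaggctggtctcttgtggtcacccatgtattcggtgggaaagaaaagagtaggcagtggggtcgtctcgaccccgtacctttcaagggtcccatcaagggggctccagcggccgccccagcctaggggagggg
The Bnip3 window held an E-box flanked on each side by GCGTG on the opposite strand, Wipi1 held a single GCGTG, and the Sqstm1 window held none of these letters. Promoter sequences matched 37 of the 45 members, with 46 promoters in all. Bnip3l was among the members without one, and some genes entered more than once, as Fam134b with 4 windows. The shares are therefore of windows and not of genes. Either hypoxia core was found in 32 of the 46 windows (69.6%) against 31.6% of 32851 promoter windows of the same length. Counted on both strands, the Bnip3 window held 4 such cores. Atg3 with 4 and Map1lc3b with 5 did not pass the test. The E-box was found in 4 windows (8.70%, against 4.34%), and TGACNNNGC in 5 (10.9%, against 7.66%). A match is a description of the letters in a window and not a binding site. Bases nearer the start or further upstream were not searched. A window without a match therefore does not show that the gene lacks such a site. The base composition of the windows was not matched, and the compared windows were not limited to genes counted here.

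The libraries held 1846208 to 3242051 UMIs. Counts are given as UMIs or as normalized counts, which are UMIs scaled by edgeR's TMM factors to the mean library size. Values of single libraries are listed in the order of replicates 1, 2 and 3 of each group. Lmna, the target, had 2066, 2794 and 1764 UMIs in shControl libraries against 1035, 1023 and 713 in shLmna, a Log2FoldChange of -1.20. Of 12 listed markers of luminal epithelium only Krt8, Krt18, Krt7, Epcam and Erbb2 were counted, with a summed normalized count of 709 to 852 in shControl and 760 to 854 in shLmna, most of it Krt8, and the other 7, Cdh1 and Esr1 among them, were not analysed here. Epcam had 33.9 ± 1.56 (SD, n = 3) normalized counts in shControl and 17.6 ± 10.1 in shLmna, with no overlap, and did not pass the test (Log2FoldChange -0.90, adjusted p = 0.0909), and Krt18 had a Log2FoldChange of -0.53. A pair of libraries, shControl replicate 3 and shLmna replicate 2, stood apart by melanocyte transcripts. The summed UMIs of Pmel, Mlana, Dct, Tyrp1 and Sox10 were 12, 7 and 1390 in the shControl libraries against 1, 1622 and 3 in shLmna. These sums were 733 and 620 CPM (UMIs scaled to equal library totals) in the 2 libraries and at most 4.497 CPM in the rest, where Sox10 was at 0. B16F10 melanoma is the other tumour line of the study, and the source of these transcripts was not tested. Calls that changed without these 2 libraries are given with and without them for the genes named. In bulk RNA, fewer cells of a type and less RNA per cell cannot be told apart.

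Of the 42 tested members, 5 were transcribed at higher levels in lamin A/C knockdown E0771 cells (Bnip3, Bnip3l, Fam134b, Wipi1 and Atg9a) and 2 at lower levels (Sqstm1 and Atg14), with p adjusted over all tested genes and a threshold of 0.05. The other 35 did not pass the test. Across all tested genes 13.7% passed, 7.96% in the higher and 5.78% in the lower direction, against 16.7%, 11.9% and 4.76% of the members, so by the adjusted p alone the shares of calls among the members were near those of the background. Bnip3l is 1 of the 5 higher members although it reached the test only through its shLmna libraries, where it is high. The same holds for its place among the higher members by the study's further criteria. The median Log2FoldChange of the tested members was -0.02, against 0.003 over all tested genes, with 19 members above and 23 below 0. With the study's further criteria of a mean normalized count above 5 and an absolute Log2FoldChange above 1, 4 members were higher and 2 lower, 14.3% of the tested members (9.52% higher and 4.76% lower) against 5.71% of all tested genes (3.97% higher and 1.74% lower), Atg9a being the member that passed the test without reaching that fold. The normalized counts of the groups did not overlap in 15 of the 42 tested members (35.7%), against 32.5% of all tested genes. Members made up 0.481 to 0.488% of all UMIs in shControl and 0.431 to 0.475% in shLmna, and the ranges did not overlap. Without Sqstm1 the share was 0.348 to 0.371% in shControl and 0.369 to 0.412% in shLmna, and the ranges overlapped.

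**Figure D1:**
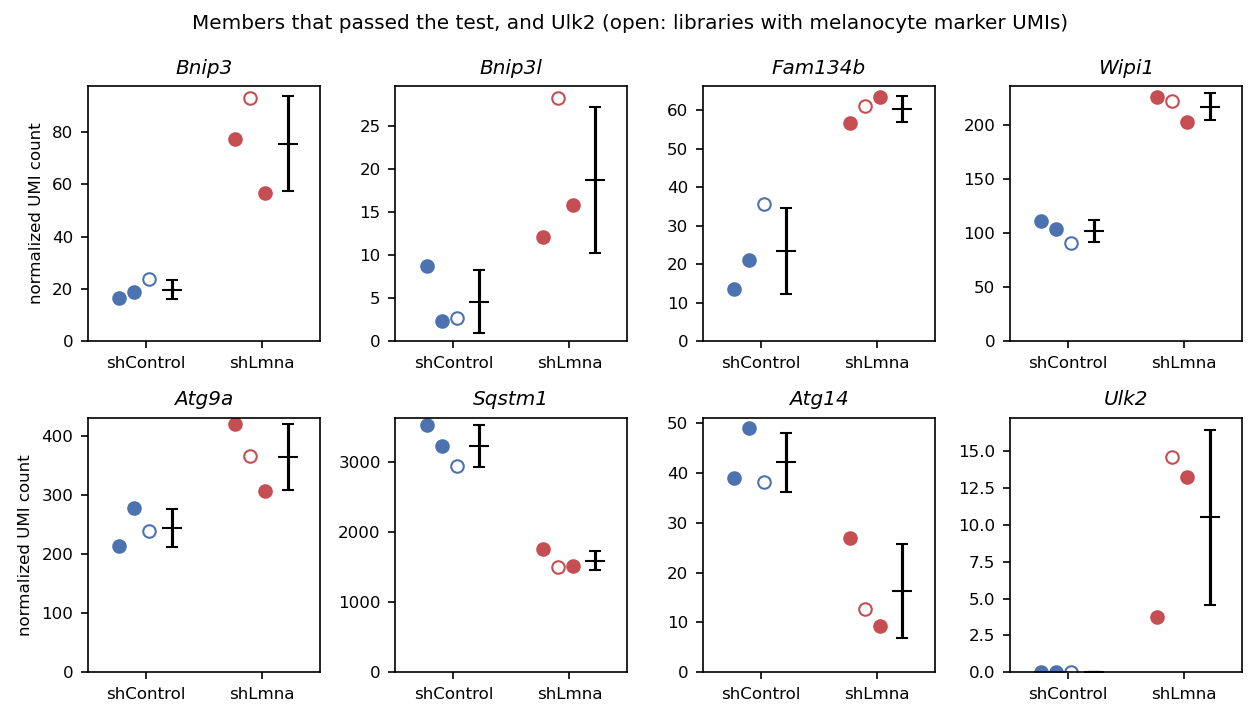
Normalized UMI counts (vertical axes, linear from 0) of the 7 members that passed the test and of Ulk2, for 3 shControl (blue) and 3 shLmna (red) libraries. Each point is a library, open points are the libraries with melanocyte marker UMIs, and bars give the mean ± SD. The groups do not overlap in any of the 8 panels, and Ulk2 was at 0 in all 3 shControl libraries.

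Of the 5 tested receptors that are embedded in organelles, Bnip3l is left out of the comparison, since it reached the test only through its shLmna libraries. Of the others, Bnip3 and Fam134b were higher, against 7.96% of all tested genes, and Fundc1 and Phb2 did not pass the test. Bnip3, an outer mitochondrial membrane receptor that binds LC3, is encoded on chromosome 7, reverse strand (GRCm38, 138890836 to 138909519). Its UMIs were 17, 24 and 18 in the shControl libraries against 83, 102 and 43 in shLmna. Every shLmna library exceeded every shControl library, and shLmna replicate 2 was the highest. Normalized counts averaged 19.6 ± 3.68 (SD, n = 3) in shControl and 75.7 ± 18.2 in shLmna, 3.85-fold higher (Log2FoldChange 1.98, standard error 0.26, adjusted p = 0.000187, by the quasi-likelihood test of edgeR and the Benjamini-Hochberg method, as for every adjusted p here). The Log2FoldChange was 1.94 without the 2 libraries with melanocyte transcripts. The annotation places Gm45507 on the opposite strand of the locus, and the sources used here do not state whether the counting used strand.

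Bnip3l (Nix), the paralogue of Bnip3 that also clears mitochondria during red cell maturation, had far fewer UMIs. It had 9, 3 and 2 UMIs in shControl and 13, 31 and 12 in shLmna. The groups did not overlap, but no shControl library reached the level that the filter on low counts asks for, so Bnip3l was tested only through its shLmna libraries and its call adds nothing to the count of higher receptors. Normalized counts averaged 4.58 ± 3.63 (SD, n = 3) in shControl and 18.7 ± 8.46 in shLmna (Log2FoldChange 2.02, standard error 0.52, adjusted p = 0.0174). The call was lost without shControl replicate 2 (adjusted p = 0.135), shLmna replicate 2 (0.104) or shLmna replicate 3 (0.0613), and without both libraries with melanocyte transcripts, where the Log2FoldChange was 1.37 and the adjusted p 0.114.

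Fam134b (Retreg1), the receptor that delivers ER sheets to the autophagosome, is encoded on chromosome 15, forward strand (25843180 to 25973687). It had 14, 27 and 27 UMIs in shControl and 61, 67 and 48 in shLmna, with no overlap and with shControl replicate 3 the highest of its group after normalization. Normalized counts averaged 23.4 ± 11.2 (SD, n = 3) in shControl and 60.4 ± 3.36 in shLmna (Log2FoldChange 1.41, standard error 0.29, adjusted p = 0.00481), and the Log2FoldChange was 1.76 without the 2 libraries with melanocyte transcripts. The 3 receptors that passed had a low GC content in their 3' ends (35.2% for Bnip3, 39.0% for Bnip3l and 36.8% for Fam134b, against a median of 47.1% over all tested genes). After a correction for GC content in each library their Log2FoldChanges were 1.48, 1.83 and 1.07, and all 3 still passed the test.

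Fundc1, the mitochondrial receptor tied to hypoxic mitophagy, had 13, 22 and 15 UMIs in shControl and 20, 17 and 17 in shLmna, and the groups overlapped (Log2FoldChange 0.19, 95% confidence interval -0.50 to 0.87, adjusted p = 0.757). Its 3' end has a GC content of 32.2%, and after the GC correction its Log2FoldChange was -0.55, again short of the test. Phb2, a prohibitin of the inner mitochondrial membrane that can bind LC3 after membrane rupture, was counted with 2226 to 3793 UMIs per library and its groups overlapped (Log2FoldChange -0.04, 95% confidence interval -0.32 to 0.23). Phb2 held 24.3 to 28.7% of the UMIs of all members. Pink1, the kinase that accumulates on depolarized mitochondria to recruit parkin, had normalized counts of 57.5, 65.2 and 72.5 in shControl and 96.8, 83.0 and 72.7 in shLmna. The groups did not overlap, by a margin between shControl replicate 3 and shLmna replicate 3 that was small beside the spread within each group, and Pink1 did not pass the test (Log2FoldChange 0.38, standard error 0.20, adjusted p = 0.222).

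**Figure D2:**
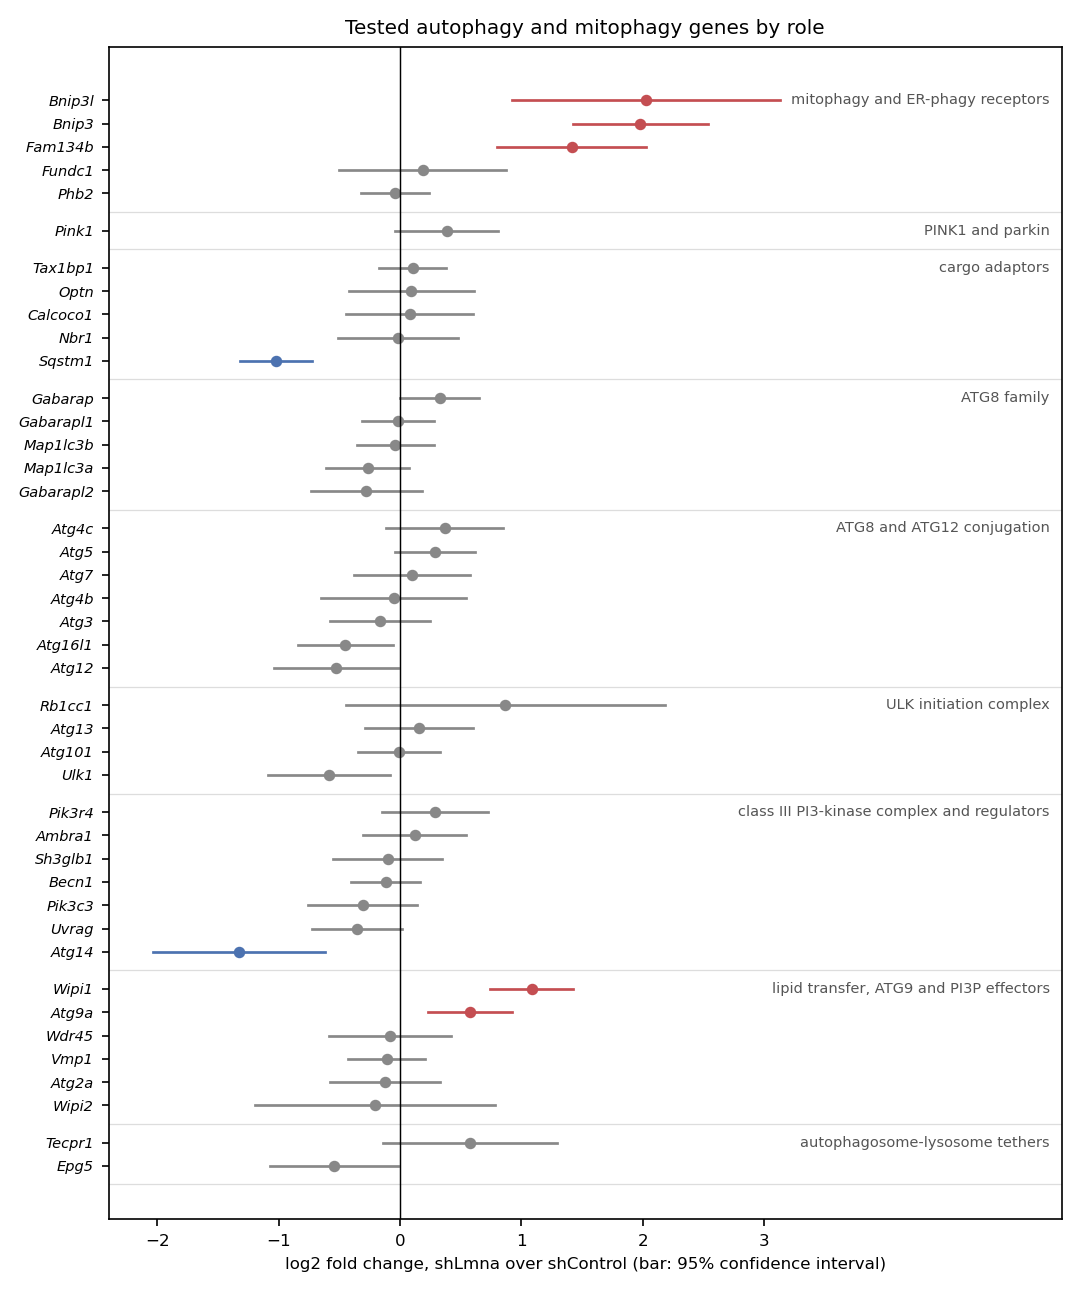
Log2FoldChange, shLmna over shControl (horizontal axis), of each of the 42 tested members grouped by role, with 95% confidence intervals. Red and blue mark members that passed the test in the higher and the lower direction, and grey those that did not, with the values running from -1.33 for Atg14 to 2.02 for Bnip3l.

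Among the soluble cargo adaptors, Sqstm1 fell and the other 4 did not pass the test. Sqstm1 encodes p62, which links ubiquitinated cargo to LC3 and is itself degraded by autophagy, so that its transcript and protein need not move together. Its locus is on chromosome 11, reverse strand (50199366 to 50210827). It had 3619, 4144 and 2227 UMIs in shControl and 1886, 1649 and 1150 in shLmna. All shLmna libraries were below all shControl libraries, both in UMIs and after normalization. Normalized counts averaged 3227 ± 295 (SD, n = 3) in shControl and 1593 ± 141 in shLmna, 2.03-fold lower (Log2FoldChange -1.02, standard error 0.14, adjusted p = 0.000237). The value lies just past the study's fold criterion, and it was -0.99 after the GC correction, -0.96 without shControl replicate 1 and -0.98 without shLmna replicate 2 or shLmna replicate 3, short of that criterion though past the test. Mrnip overlaps Sqstm1 on the opposite strand. Sqstm1 held 24.1 to 28.0% of all member UMIs in shControl and 13.3 to 15.7% in shLmna.

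The remaining adaptors were Nbr1 and Optn, which bind ubiquitinated cargo and LC3, Tax1bp1, which acts beside them, and Calcoco1, a paralogue of NDP52. Their Log2FoldChanges lay between -0.01 (Nbr1, adjusted p = 0.979) and 0.10 (Tax1bp1, adjusted p = 0.650). Tax1bp1 had normalized counts of 504, 517 and 505 in shControl and 520, 574 and 546 in shLmna. Its groups did not overlap, and the 95% confidence interval of its Log2FoldChange ran from -0.18 to 0.38. After the GC correction its Log2FoldChange was -0.12.

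None of the 5 ATG8 genes passed the test. An unadjusted p below 0.05 by edgeR was found for 2543 of 8969 tested genes, 12 of 42 tested members and 1 ATG8 gene. That gene was Gabarap, with normalized counts of 928, 876 and 1144 in shControl and 1344, 1301 and 1045 in shLmna (Log2FoldChange 0.33, adjusted p = 0.172). The groups overlapped through shControl replicate 3 and shLmna replicate 3. With the GC correction and without both libraries with melanocyte transcripts Gabarap passed the test (Log2FoldChange 0.47, adjusted p = 0.0437). Map1lc3b, the LC3 form most used as an autophagosome marker, differed by -0.04 on the Log2FoldChange scale (standard error 0.15, adjusted p = 0.900), and Gabarapl2 had -0.28 (adjusted p = 0.424). Map1lc3a had 142 to 170 normalized counts in shControl and 118 to 141 in shLmna, with no overlap (Log2FoldChange -0.27, adjusted p = 0.304), and Gabarapl1 had a Log2FoldChange of -0.02. As shares of the UMIs of the 5 genes, Gabarap held 40.8 to 49.0% in shControl and 46.0 to 55.1% in shLmna, and Map1lc3a held 6.62 to 7.72% and 5.17 to 5.76%.

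None of the 7 tested genes of ATG8 and ATG12 conjugation passed the test. An unadjusted p below 0.05 by edgeR was found for 2 of them, against 2543 of 8969 tested genes. Atg16l1, which directs the conjugation enzyme to the membrane, had normalized counts of 118, 148 and 103 in shControl and 91.2, 93.9 and 85.9 in shLmna. The shLmna libraries were all below the shControl libraries (Log2FoldChange -0.45, standard error 0.18, adjusted p = 0.118), and Atg16l1 passed the test without shControl replicate 3 (-0.56, adjusted p = 0.0449). Atg5, which is joined to ATG12 and works with ATG16L1, had 135, 124 and 125 in shControl and 157, 163 and 148 in shLmna, again with no overlap but in the other direction (Log2FoldChange 0.29, standard error 0.16, adjusted p = 0.244). The 3' end of Atg5 has a GC content of 36.0%, and after the GC correction its Log2FoldChange was -0.16. Atg12 had a Log2FoldChange of -0.53 with overlapping groups, and the values of Atg3, Atg4b, Atg4c and Atg7 lay between -0.16 and 0.37. After the GC correction Atg3, the enzyme that transfers ATG8 to lipid, passed the test with a Log2FoldChange of -0.50, against -0.16 without it. Atg4d had 2 to 9 UMIs and Atg10 1 to 10 UMIs per library.

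In the ULK initiation complex none of the 4 tested genes passed the test. An unadjusted p below 0.05 by edgeR was found for 1 of them, against 2543 of 8969 tested genes. Ulk1, the kinase that starts autophagy under control of mTORC1 and AMPK, had normalized counts of 45.8, 69.9 and 58.0 in shControl and 41.9, 32.8 and 42.3 in shLmna. The groups did not overlap (Log2FoldChange -0.58, standard error 0.23, adjusted p = 0.113). Ulk2, its paralogue, had no UMI in the 3 shControl libraries and 4, 16 and 10 UMIs in shLmna. Against a floor of 3 UMIs per library, Ulk2 was at least 3.42-fold higher in shLmna, with a single shLmna library close to that floor. Ulk2 did not pass the filter on low counts. A test without the filter would be reached only through the shLmna libraries and is not used here. The scaffolds and partners Rb1cc1 (FIP200), Atg13 and Atg101 had Log2FoldChanges of 0.87, 0.15 and -0.01, and the interval of Rb1cc1, with 1 to 16 UMIs per library, ran from -0.44 to 2.18.

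Of the 7 genes of the class III PI3K complex and its regulators, Atg14 fell. Atg14 is the subunit that directs this complex to autophagosome formation, whereas Uvrag takes its place in the complex of endosomes. Atg14 is encoded on chromosome 14, reverse strand (47540893 to 47570649) and had 40, 63 and 29 UMIs in shControl and 29, 14 and 7 in shLmna. After normalization all 3 shLmna libraries were below all 3 shControl libraries, with shLmna replicate 1 the highest of its group. Normalized counts averaged 42.0 ± 5.98 (SD, n = 3) in shControl and 16.3 ± 9.40 in shLmna (Log2FoldChange -1.33, standard error 0.33, adjusted p = 0.0158). The call was lost without shControl replicate 2 (adjusted p = 0.106), shLmna replicate 2 (0.0654) or shLmna replicate 3 (0.0769), with Log2FoldChanges of -1.20, -1.14 and -1.09.

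The other 6 genes of this group did not pass the test. Becn1, the shared scaffold of both complexes, had normalized counts of 411, 416 and 393 in shControl and 368, 382 and 375 in shLmna. The groups did not overlap, and the difference was small (Log2FoldChange -0.12, 95% confidence interval -0.40 to 0.16, adjusted p = 0.604). Pik3c3, the catalytic subunit, had a Log2FoldChange of -0.31 and Pik3r4, its regulatory partner, 0.29, both with overlapping groups. Uvrag had -0.35 (adjusted p = 0.199), Ambra1 0.12 and Sh3glb1 -0.10.

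Of the 6 tested genes of lipid transfer, ATG9 vesicles and PI3P reading, Wipi1 and Atg9a were higher. Wipi1, which binds PI3P on the forming membrane, is encoded on chromosome 11, reverse strand (109573331 to 109611967). It had 114, 133 and 69 UMIs in shControl and 242, 243 and 153 in shLmna, and every shLmna library exceeded every shControl library in UMIs and after normalization. Normalized counts averaged 101.8 ± 10.2 (SD, n = 3) in shControl and 216 ± 12.5 in shLmna, 2.13-fold higher (Log2FoldChange 1.08, standard error 0.16, adjusted p = 0.000447), and the Log2FoldChange was 1.00 without the 2 libraries with melanocyte transcripts.

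Atg9a, a membrane protein with lipid scramblase activity carried by vesicles that seed the autophagosome, had normalized counts of 214, 279 and 240 in shControl and 421, 367 and 308 in shLmna. The groups did not overlap, and the mean was 1.49-fold higher in shLmna (Log2FoldChange 0.58, standard error 0.16, adjusted p = 0.0271). The call was lost without shControl replicate 1 (adjusted p = 0.115), shControl replicate 2 (0.055), shLmna replicate 1 (0.132) or shLmna replicate 2 (0.0687), and without both libraries with melanocyte transcripts (0.0541). Gm29253 overlaps Atg9a on the same strand. Wipi2, a paralogue of Wipi1 whose protein recruits ATG16L1, had 12.4 to 23.7 normalized counts in shControl and 5.28 to 26.4 in shLmna. It did not pass the test. Wdr45, Vmp1 and Atg2a had Log2FoldChanges between -0.12 and -0.08.

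The 2 tethers that join autophagosomes to lysosomes did not pass the test. Epg5 had normalized counts of 43.8, 41.2 and 32.95 in shControl and 26.1, 24.6 and 31.7 in shLmna. The shLmna libraries were all lower, with shControl replicate 3 and shLmna replicate 3 close together (Log2FoldChange -0.54, standard error 0.25, adjusted p = 0.163). Tecpr1 had 24.4, 28.7 and 65.9 in shControl and 42.8, 75.7 and 50.2 in shLmna, with its highest value of each group in the library with melanocyte transcripts (Log2FoldChange 0.57, adjusted p = 0.286). The part of those transcripts in the value of Tecpr1 was not tested. Without shControl replicate 3 its Log2FoldChange was 1.07 and its adjusted p 0.0131.

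**Figure D3:**
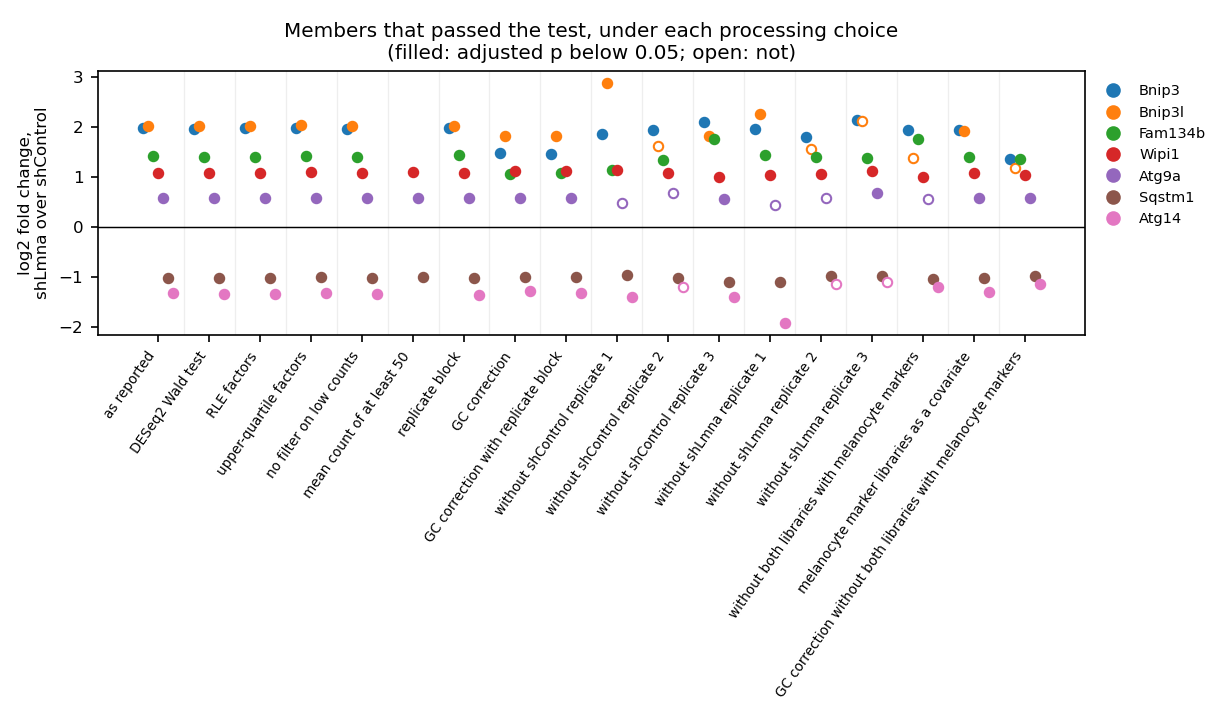
Log2FoldChange, shLmna over shControl (vertical axis), of the 7 members that passed the test, under each processing choice (horizontal axis). Filled points had an adjusted p below 0.05 and open points did not. Bnip3, Fam134b, Wipi1 and Sqstm1 are filled wherever they were tested, and Bnip3l, Atg9a and Atg14 are open under some choices.

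Of the 7 members that passed the test, 4 (Bnip3, Fam134b, Wipi1 and Sqstm1) passed it under every processing alternative in which they were tested, and Bnip3l, Atg9a and Atg14 did not. The Log2FoldChange ranged over these alternatives from 1.37 to 2.13 for Bnip3, from 1.07 to 1.76 for Fam134b, from 1.00 to 1.14 for Wipi1 and from -1.11 to -0.96 for Sqstm1.

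Genes around the core pathway were described from further lists. None of 15 tested regulators of the mTORC1, TSC and AMPK signals that control ULK1 passed the test by edgeR, and none by DESeq2. An unadjusted p below 0.05 by edgeR was found for 2 of them, against 2543 of 8969 tested genes. The Log2FoldChanges of the 15 regulators ran from -0.92 to 0.25 with a median of 0.02. Mlst8, a subunit of mTORC1, had a Log2FoldChange of -0.55 and an adjusted p of 0.0688. It passed after the GC correction (0.0439), with the replicate block (0.0475) and with both (0.0493). It also passed without shControl replicate 3 (0.0267) and with the melanocyte marker libraries as a covariate (0.0357). Under the other alternatives, DESeq2 among them (0.122), it did not pass.

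Of 3 tested transcription factors of autophagy genes, Hif1a was higher. Hif1a, the oxygen-regulated subunit of HIF-1, had normalized counts of 55.5, 104 and 204 in shControl and 176, 381 and 309 in shLmna. The groups overlapped, since shControl replicate 3 exceeded shLmna replicate 1 (Log2FoldChange 1.28, standard error 0.35, adjusted p = 0.0236). The call was lost by DESeq2 (adjusted p = 0.173), after the GC correction (Log2FoldChange 0.59, adjusted p = 0.0997), and without shControl replicate 1 (0.0725), shControl replicate 2 (0.147), shLmna replicate 2 (0.0900) or shLmna replicate 3 (0.117). Tfeb had 8 to 31 UMIs per library and a Log2FoldChange of 1.04 (adjusted p = 0.0917), and Tfe3 had -0.03. Mitf, a factor of melanocytes, had 3, 0 and 31 UMIs in shControl and 1, 25 and 2 in shLmna, high in the 2 libraries with melanocyte transcripts.

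Of 13 tested HIF targets other than Bnip3 and Bnip3l, 5 were higher and 1 lower, against 7.96% and 5.78% of all tested genes. Ankrd37 had 39, 39 and 29 UMIs in shControl and 93, 107 and 60 in shLmna, with no overlap (Log2FoldChange 1.32, adjusted p = 0.000843). Egln3, a prolyl hydroxylase that marks HIF for degradation, had a Log2FoldChange of 0.98 (adjusted p = 0.00593), Fam162a, a mitochondrial protein, 0.81 (adjusted p = 0.0136), and lactate dehydrogenase Ldha 0.53 (adjusted p = 0.0273), all without overlap. Egln1 was the other higher target, and Ndrg1 the lower (Log2FoldChange 0.59 and -0.60). Vegfa, Slc2a1, Aldoa and P4ha2 had Log2FoldChanges between -0.02 and 0.10 and did not pass the test. Adm, which encodes the vasodilator adrenomedullin, and Pfkfb3, a regulator of glycolysis, were below shControl in every shLmna library without passing the test (Log2FoldChange -0.52 and -0.36, adjusted p = 0.0919 and 0.220), and Hk2 had 0.25. The median of the list was 0.10. The number of higher targets was 2 without shControl replicate 1, shControl replicate 2 or shLmna replicate 2, 3 without shLmna replicate 1 or shLmna replicate 3, and 4 without both libraries with melanocyte transcripts. Ankrd37 and Egln3 passed with each library left out in turn. Ldha lost its call without any single library other than shControl replicate 3, and Fam162a without shControl replicate 1, shControl replicate 2, shLmna replicate 2 or shLmna replicate 3. Egln1 lost its call without any single library other than shLmna replicate 3 (adjusted p up to 0.184), without both libraries with melanocyte transcripts (0.181) by DESeq2 (0.0558) and with no filter on low counts (0.0548). The lower call, that of Ndrg1, was present with shControl replicate 3 left out and absent with any other library left out.

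**Figure D4:**
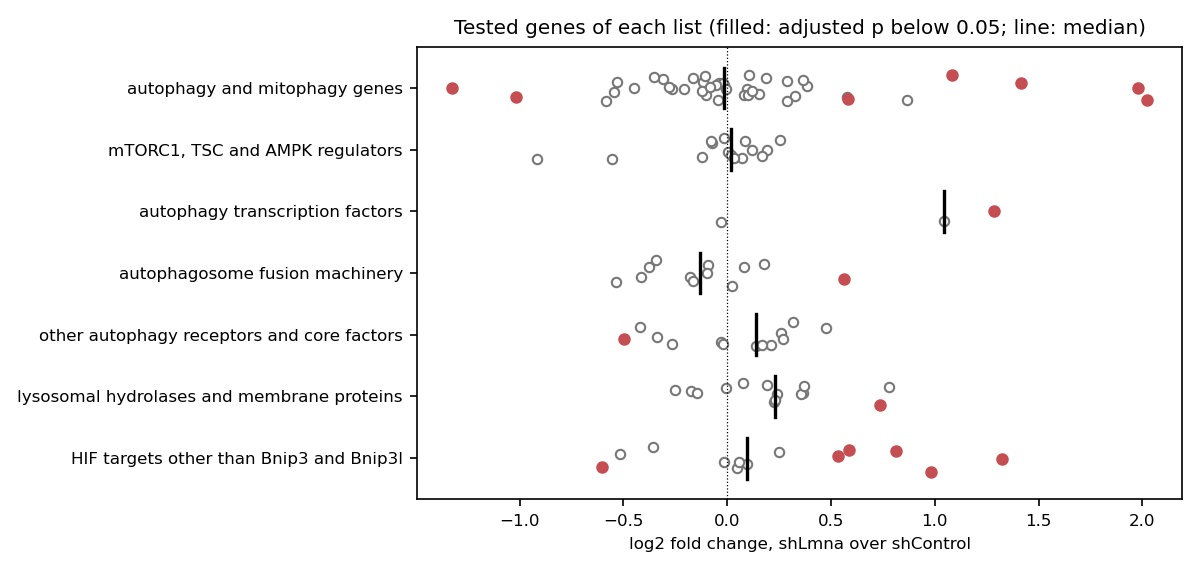
Log2FoldChange, shLmna over shControl (horizontal axis), of the tested members and of the tested genes of 6 further lists. Each point is a gene, filled points passed the test, and black lines are medians, which run from -0.13 for the fusion machinery to 1.04 for the 3 transcription factors.

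Downstream of the autophagosome, 1 of 12 tested genes of the fusion machinery and 1 of 14 lysosomal genes were higher, shares near the 7.96% of all tested genes. Vamp8, the SNARE of the lysosome that pairs with syntaxin 17, had normalized counts of 555, 597 and 448 in shControl and 847, 662 and 864 in shLmna, with no overlap (Log2FoldChange 0.56, adjusted p = 0.0259). Lamp2, a lysosomal membrane protein, was higher with a Log2FoldChange of 0.73 (adjusted p = 0.0339), which was 0.09 after the GC correction. The lysosomal list had a median of 0.23 and 10 of 14 genes above 0, against a median of 0.003 and 50.4% above 0 over all tested genes. Of 13 tested further receptors and core factors, Wdr45b, the WIPI3 protein of the PI3P readers, was lower (Log2FoldChange -0.50, adjusted p = 0.0385). Vamp8 lost its call without any single library other than shLmna replicate 2 (adjusted p up to 0.110). Lamp2 and Wdr45b lost theirs without any single library other than shControl replicate 3 (adjusted p up to 0.185 and 0.144), and Wdr45b also without both libraries with melanocyte transcripts (0.0811).

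Of 7 listed markers of leukocytes, which have highly active lysosomes, only Lyz2 and Csf1r were counted. Ptprc, Cd3e, Cd79a, Itgam and Adgre1 were not among the counted genes. Lyz2 had 10, 23 and 13 UMIs in shControl and 42, 35 and 29 in shLmna, with no overlap (Log2FoldChange 1.28, adjusted p = 0.011, and 0.0520 without shControl replicate 1), and Csf1r had 0 to 7 UMIs per library. The summed normalized count of Lyz2 and Csf1r, most of it Lyz2, was 14.6 to 21.7 in shControl and 38.3 to 44.9 in shLmna. Its part in the lysosomal values was not tested. Of 7 endothelial markers only Pecam1 was counted, with 2 to 7 UMIs per library.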

How the data were processed

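RNA of 3 shControl and 3 shLmna E0771 libraries was profiled by MARS-seq. The authors trimmed reads with cutadapt, mapped them to mm10 with STAR 2.4.2a and deposited UMI counts of the 3' end windows of RefSeq genes (the last 1000 bases and 100 bases downstream), whole numbers without normalization for 10520 genes, where the highest count of each gene is 6 or more. HTSeq and DESeq2 are also named in the submitters' processing notes. Values that the authors corrected with ComBat, and their table of fold changes and p values, were not used. Whether counting used strand is not given in the sources used here. Libraries held 1846208 to 3242051 UMIs, and replicates of a group differed by more than sampling noise (chi-square per degree of freedom 5.36 to 8.42).

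Counts were tested in R 4.3.3 with edgeR 4.0.16 (filterByExpr with minimum count 10, TMM factors, quasi-likelihood test, two-sided, no block, Benjamini-Hochberg over 8969 genes). DESeq2 1.42.0 was an alternative. No label states that replicate numbers pair the libraries. The correlations of deviations between libraries of the same number (0.35, -0.11 and 0.0052) cannot decide it, since unlike numbers were not compared. The smallest p of an exact permutation test of 3 against 3 libraries is 0.1. GC content was taken from GENCODE M21 3' ends and corrected by loess (span 0.3). The floor was 3 UMIs per library. Figures were drawn with matplotlib 3.10.9.

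The members and lists were chosen with earlier results of these data known. Genes were named by a rule: members past the test, the 5 non-overlapping members with the largest change that missed it, 9 reference members, up to 4 called genes per further list and Lmna. Other named genes were chosen after their values were seen, and 1 item is not reported here. The alternatives were 14 planned settings and 3 added after the data were seen, which leave out or model the 2 libraries above 10 CPM of melanocyte markers.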

Additional observations from a re-analysis of the deposited data

How the results depend on the processing

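With a mean count of at least 50, 2 members were higher and 1 lower (1 and 1 by the study criteria), since Bnip3, Bnip3l, Fam134b and Atg14 were then not tested. The GC correction left 1 member lower by the study criteria, with or without the replicate block, because Sqstm1 was at -0.99, and it called 713 genes higher and 819 lower against 714 and 518. Without both libraries with melanocyte transcripts 3 members were higher and the median Log2FoldChange of members was -0.11, and with the GC correction besides, 1 was lower by the study criteria, the median was -0.14 and Bnip3l was at 1.17 (adjusted p = 0.175). Leaving out each library in turn gave 3 to 8 members higher and 1 to 3 lower, 3 to 7 and 0 to 2 by the study criteria, a median of -0.059 to 0.027 and a Log2FoldChange of Lmna of -1.26 to -1.15. The 8 higher members, without shControl replicate 3, included Rb1cc1 (1.91), Tecpr1 (1.07) and Ulk2. Both Rb1cc1 and Ulk2 reached that test only through their shLmna libraries. Ulk2 was also counted as higher without shControl replicate 1, shControl replicate 2 or shLmna replicate 1, with the same limit. Bnip3l, also tested only through its shLmna libraries, was counted as higher in 3 of the 6 fits. The counts of higher members in these fits include such genes. The GC correction turned the direction of 5 of the 42 tested members, Fundc1 (-0.55), Tax1bp1 (-0.12), Atg4c (-0.01), Gabarapl1 (0.01) and Atg5, none of them past the test. Atg5 reversed to -0.16 with the GC correction and to -0.15 with the replicate block added to that correction. With the GC correction and without both libraries with melanocyte transcripts, Atg5 was at -0.26. Map1lc3b reversed to 8.88e-05 with the GC correction and the replicate block, 0.041 without shControl replicate 2 and 0.015 without shLmna replicate 3. The replicate block alone gave 5 members higher and 2 lower and a Log2FoldChange of Bnip3 of 1.98, and it changed no call among the members. No label states that the numbers pair the libraries, so this fit is only an alternative. Where no cause is shown, the cause was not tested. Precision is limited by low counts for Bnip3l, Ulk2, Rb1cc1 and Wipi2, and counting intervals were not used because replicates vary by more than sampling noise.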

Other observations

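Sqstm1 is a known target of NRF2, and 7 further NRF2 targets, chosen after the values were seen, were read from the same fit. Hmox1, which encodes heme oxygenase 1, had 1342, 1497 and 913 UMIs in shControl and 593, 569 and 377 in shLmna, with no overlap (Log2FoldChange -1.23, adjusted p = 3.27e-05, and -1.23 without the 2 libraries with melanocyte transcripts). Srxn1, sulfiredoxin, was lower with a Log2FoldChange of -0.66 (adjusted p = 0.00613, and -0.70 without those libraries). Prdx1, a peroxiredoxin, had 199, 154 and 64 UMIs in shControl and 32, 78 and 16 in shLmna (Log2FoldChange -1.67, adjusted p = 0.00714). Its Log2FoldChange was -2.57 without those 2 libraries, and its adjusted p was 0.0589 without shLmna replicate 3.

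The other 4 did not pass the test. Gclm, Gclc and Txnrd1, genes of glutathione and thioredoxin metabolism, had Log2FoldChanges of -0.20, -0.09 and -0.27. After the GC correction Gclc passed it, with -0.53 (adjusted p = 0.0229). Nqo1, a quinone reductase that is a standard NRF2 readout, had 24, 14 and 14 UMIs in shControl and 38, 26 and 37 in shLmna, in the opposite direction (Log2FoldChange 1.03, adjusted p = 0.0631, and 1.32 with adjusted p = 0.0201 without those libraries). It also passed after the GC correction (adjusted p = 0.0435) and with the replicate block (0.0353). Nqo1 was the only one of the 7 targets with a positive Log2FoldChange. Over all tested genes 50.4% were above 0 and 5.78% passed the test in the lower direction. Because the 7 were chosen after the values were seen, their calls and directions cannot be weighed against those shares. A shared cause was not tested.

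Pgk1, a HIF target that did not pass the filter on low counts, had 10, 7 and 38 UMIs in shControl and 9, 35 and 6 in shLmna, high in the 2 libraries with melanocyte transcripts.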
